A study of Mus musculus with 12 samples.

Results

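Mouse embryonic stem cells that had lost Tasor were set directly against cells that had lost Pphln1, as groups and without wild-type cells as the reference. The comparison used 6 of the study's 12 libraries, 3 labelled Tas and 3 labelled Pph, found by joining the deposited tables on the gene identifier. The tables listed 57180 genes, of which 16840 passed the filter on low counts and were tested. The Tas group was Tasor-null and the Pph group was Pphln1-null. The other groups, used for the filter on low counts, the estimate of the spread and the levels and differences from WT given alongside, were Mphosph8-null cells (MP8) and wild-type cells (WT), with 3 libraries each. Every group was labelled as mouse embryonic stem cells of the C57BL/6 strain, and no treatment or time was given. The labels do not say how many clones a null genotype stands for or whether its libraries came from separate cultures, so each p-value reflects no more than the variation among these libraries, which may be technical.

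TASOR, periphilin (encoded by Pphln1) and MPP8 (encoded by Mphosph8) together form HUSH, the human silencing hub, a complex that silences young LINE-1 elements, retrogenes and other long intronless transcription units. TASOR is the scaffold that holds the complex together, periphilin binds RNA, and MPP8 reads methylated lysine 9 of histone H3, the mark laid down by the HUSH partner SETDB1. In mouse embryonic stem cells HUSH is known mainly for repression of LINE-1 elements and of genes near them. Since the subunits act in 1 complex, the direct contrast asks where the loss of one differs from the loss of the other.

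Library totals were 18898952 to 21112986 estimated counts in Tas and 17996836 to 19697066 in Pph. Over genes with enough counts, the chi-square per degree of freedom was 1.92 to 2.13 between Tas libraries and 2.25 to 3.98 between Pph libraries, against 41.5 to 45.1 between a Tas and a Pph library. Levels below are in CPM, the counts after scaling by each library's effective size, with library values in the order of their replicate numbers. Fold changes are Tas over Pph on the log2 scale, ± SE of the fit. A rise or fall below is that of Tas against Pph, not of either group against WT. A gene is called where its adjusted p, from edgeR's quasi-likelihood test with Benjamini-Hochberg adjustment over the tested genes, was at most 0.05.

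Each null group carried low levels of the gene it was labelled as lacking. Tasor (ENSMUSG00000040651) had 30.7, 31.8 and 33.1 CPM in the Tas libraries, against 197, 171 and 192 CPM in the Pph libraries. The groups did not overlap (log2 fold change -2.55 ± 0.05, edgeR adjusted p = 1.73e-26). Pphln1 (ENSMUSG00000036167) had 74.3, 76.2 and 73.9 CPM in Tas, against 19.8, 23.1 and 20.9 CPM in Pph. It was higher in Tas in every pairing of libraries (1.81 ± 0.05, edgeR adjusted p = 2.47e-22). Both transcripts kept reads in their own null cells, and which part of each gene was altered is not given in the sources used here. In WT, Tasor averaged 126 ± 2.70 CPM and Pphln1 68.5 ± 2.91 CPM (± SD, n = 3, as for all means below), so Tasor in Pph stood above WT (log2 fold change over WT 0.56) while Pphln1 in Tas stood near it (0.13).

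The remaining subunit and the partners differed little. Mphosph8 had 100.2, 94.2 and 97.8 CPM in Tas and 96.7, 90.6 and 95.0 CPM in Pph, overlapping values that did not pass the test (edgeR adjusted p = 0.525). Setdb1, the H3K9 methyltransferase, was higher in Tas by 0.20, Morc2a, a chromatin compactor recruited by HUSH, by 0.14, and Trim28, the corepressor that joins zinc finger proteins to SETDB1, by 0.36. Atf7ip, which stabilises SETDB1, had 141, 142 and 145 CPM in Tas, against 102, 97.4 and 93.4 CPM in Pph. It showed the largest difference among the partners (0.55 ± 0.04, edgeR adjusted p = 1.68e-12). Of 15 HUSH subunits and direct partners tested, 10 were called higher in Tas, Pphln1 among them, and 1 (Tasor) lower, against 28.5% and 29.3% of all tested genes. Pphln1 and Tasor define the groups, so their calls follow from the genotypes and say nothing of the partners. The median log2 fold change of the 15 genes was 0.18.

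Over all tested genes, 9736 of 16840 (57.8%) were called, 4803 (28.5%) higher in Tas and 4933 (29.3%) lower. The counts of called genes in the lists below are to be read beside these shares. The libraries of the groups did not overlap for 10671 genes (63.4%). The median absolute log2 fold change was 0.31, and the median with its sign was 0.00. Differences of at least 2-fold were less evenly divided, with 634 genes (3.76%) higher in Tas and 1428 (8.48%) lower. Beyond 8-fold there were 44 and 86 genes. Which direction held more calls depended on the settings, turning to 5038 higher and 4736 lower under RLE size factors, to 4598 and 4247 under DESeq2 and to 4928 and 4914 with no filter on low counts, but the excess of lower genes at 2-fold or more did not turn.

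The genes on either side differed in their annotation. Gene types came from GENCODE M21, and a gene absent from it counted as not protein coding. A gene with only a gene model or clone name can also be protein coding, so the classes overlap. Among genes at least 2-fold lower in Tas, 91.5% were protein coding and 9.87% carried only a gene model or clone name. Among genes at least 2-fold higher in Tas, 62.0% were protein coding and 36.9% were gene models, against 85.3% and 15.2% of the tested genes. The WT mean lay nearer the Tas mean for 875 of the 1428 lower genes and nearer the Pph mean for 553. For the 634 higher genes it lay nearer Tas for 243 and nearer Pph for 391 (distances on log2 of CPM + 0.1). MP8 cells lay nearer Tas for 770 of the lower and 331 of the higher genes.

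**Figure D1:**
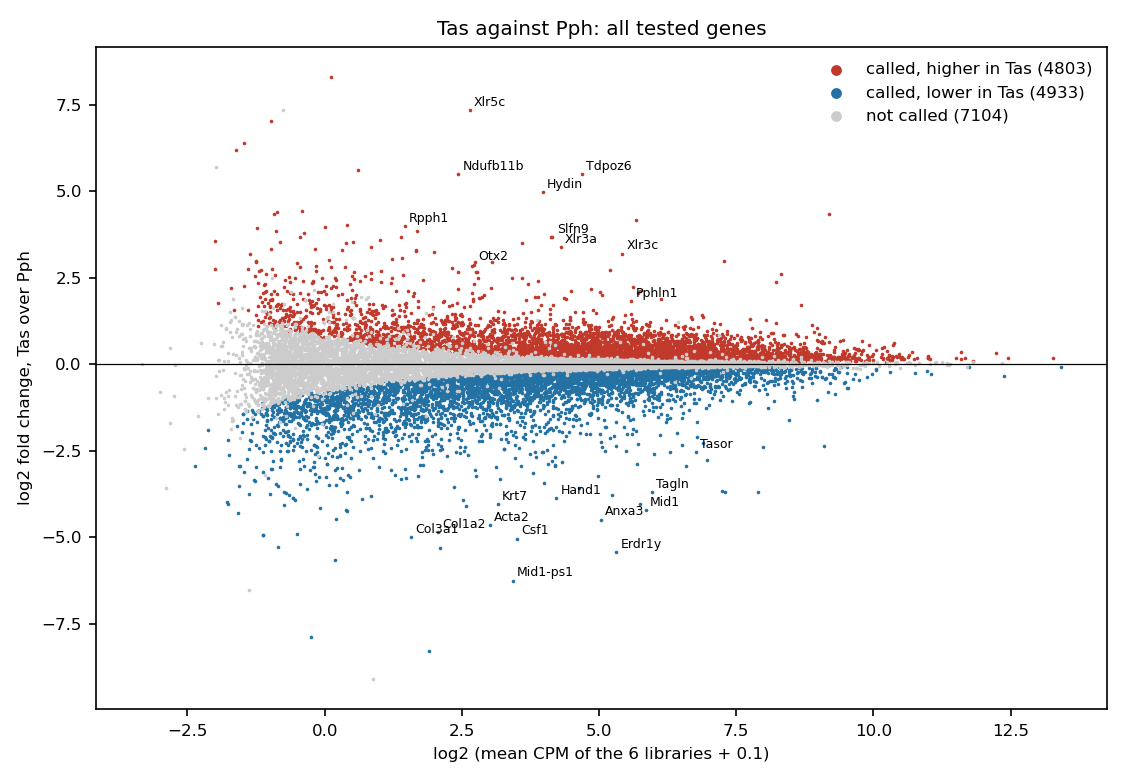
Each point is 1 tested gene, with the log2 of its mean CPM over the 6 libraries (plus 0.1) on the horizontal axis and the log2 fold change of Tas over Pph on the vertical axis. The 4803 genes called higher in Tas are red, the 4933 called lower are blue and the 7104 not called are grey. Genes far from 0 are seen at every level, and more of them lie below the line than above it.

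The regulatory sequences that recur in the results below are promoters of 3 gene groups that were mostly lower in Tas: targets of serum response factor (SRF), of the YAP coactivators with TEAD factors, and of the integrated stress response. Each stretch lies upstream of the gene's annotated start, is read 5′ to 3′ on the strand of the gene, and was taken from RefSeq on build GRCm38.p6. Capitals mark the match. The genes were picked because their window of 300 bases around the start (250 before and 50 after) held the motif. In the SRF group, capitals mark the CArG box, the site that SRF binds, in Acta1 (alpha skeletal actin, chr8:123894794-123894893, minus strand), Myl9 (myosin regulatory light chain, chr2:156775258-156775357, plus strand) and Vcl (vinculin, chr14:20929148-20929225, plus strand).
Acta1: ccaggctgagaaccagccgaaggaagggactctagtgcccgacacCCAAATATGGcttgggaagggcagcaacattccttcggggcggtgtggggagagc
Myl9: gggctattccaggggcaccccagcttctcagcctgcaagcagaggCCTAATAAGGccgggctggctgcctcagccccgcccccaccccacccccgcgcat
Vcl: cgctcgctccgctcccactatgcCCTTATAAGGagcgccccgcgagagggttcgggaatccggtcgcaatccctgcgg

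In the YAP group, capitals mark GGAATG, the core that TEAD factors bind, or its reverse complement, in Ankrd1 (a stretch-induced ankyrin repeat protein, chr19:36119917-36120016, minus strand), Ccn1 (a secreted matricellular protein, chr3:145650038-145650137, minus strand) and Crim1 (a transmembrane protein that binds BMPs, chr17:78200120-78200219, plus strand).
Ankrd1: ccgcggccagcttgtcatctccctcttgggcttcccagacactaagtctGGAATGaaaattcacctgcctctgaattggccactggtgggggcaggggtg
Ccn1: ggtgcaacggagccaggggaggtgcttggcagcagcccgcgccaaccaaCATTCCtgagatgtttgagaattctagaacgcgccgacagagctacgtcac
Crim1: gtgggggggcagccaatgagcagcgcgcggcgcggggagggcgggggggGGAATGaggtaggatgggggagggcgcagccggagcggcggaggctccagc

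For the stress response, capitals mark the C/EBP-ATF response element, searched as TGATGNAA on both strands, in Asns (asparagine synthetase, chr6:7693210-7693309, minus strand), Atf3 (a stress-induced transcription factor, chr1:191183391-191183490, minus strand), Chac1 (a glutathione-degrading enzyme, chr2:119351002-119351101, plus strand) and Nupr1 (a stress-induced nuclear protein, chr7:126625528-126625627, minus strand).
Asns: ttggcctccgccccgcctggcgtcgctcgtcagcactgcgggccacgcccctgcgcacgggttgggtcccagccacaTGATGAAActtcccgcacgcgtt
Atf3: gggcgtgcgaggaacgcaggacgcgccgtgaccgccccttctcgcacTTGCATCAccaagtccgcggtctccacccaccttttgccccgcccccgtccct
Chac1: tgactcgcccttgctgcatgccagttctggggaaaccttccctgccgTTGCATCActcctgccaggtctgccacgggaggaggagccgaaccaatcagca
Nupr1: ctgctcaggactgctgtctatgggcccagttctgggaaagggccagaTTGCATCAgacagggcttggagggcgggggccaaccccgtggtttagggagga

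The CArG box was found for 6 of the 21 genes of the SRF list with a RefSeq promoter (28.6%), against 1.81% of 27025 genes with windows of the same length. A gene counted where any of its promoters held the motif. GGAATG was found for 8 of 13 genes of the YAP list (61.5%), against 16.6%. TGATGNAA was found for 9 of 21 genes of the stress response list (42.9%), against 4.51%. The lists hold genes known as targets of these factors, so the shares describe how they were composed, and no binding was measured.

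Contractile and cytoskeletal genes gave some of the largest falls. SRF, with its myocardin-related cofactors, senses the pool of free actin and drives actin, myosin and adhesion genes. Acta2, smooth muscle alpha actin, had 0.704, 0.784 and 0.340 CPM in Tas, against 13.2, 16.9 and 15.7 CPM in Pph. The groups lay far apart, with WT between them at 2.46 ± 0.347 CPM (-4.64 ± 0.19, edgeR adjusted p = 4.28e-19). Acta1 had 0.595, 0.490 and 0.825 CPM in Tas, against 12, 12.3 and 8.98 CPM in Pph (-4.10 ± 0.21). Tagln, the actin-binding protein transgelin, had 9.09, 8.62 and 8.98 CPM in Tas, against 115, 120.3 and 113 CPM in Pph (-3.70 ± 0.06). Both were again below WT in Tas and above it in Pph, with log2 fold changes over WT of -0.73 and 2.98 for Tagln. The actin transcripts are near copies of each other in sequence, so reads of Acta1 and Acta2 may have been divided unevenly.

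Of 25 tested genes of the SRF and contractile list, 22 were called lower in Tas and 1 higher, with a median of -0.87, where the median of the tested genes was 0.00. Flnc, a muscle filamin, had 23.9, 22.3 and 20.6 CPM in Tas, against 167, 176 and 167 CPM in Pph (-2.93 ± 0.06). Of the genes whose promoters are printed, Vcl had 93.1, 98.7 and 93.4 CPM in Tas, against 176, 156 and 162 CPM in Pph (-0.79 ± 0.04), and Myl9 had 11.7, 11.0 and 11.6 CPM in Tas, against 17.1, 20.9 and 17.4 CPM in Pph (-0.69 ± 0.09). Neither pair of groups overlapped. The most abundant actins differed little. Actb had 2459, 2524 and 2502 CPM in Tas, against 2268, 2507 and 2366 CPM in Pph, and did not pass the test (edgeR adjusted p = 0.0965). Actg1 had 3198, 3264 and 3290.2 CPM in Tas, against 3265, 3637 and 3379.8 CPM in Pph, just missing the threshold (edgeR adjusted p = 0.0501). Under alternative settings, Actb was called higher in 5 (0.07 to 0.11) and Actg1 lower in 4 (-0.11 to -0.07). The 1 member called higher, the immediate early factor Egr1 (0.18), lost its call without Pph replicate 1 or 2 or without Tas replicate 1 or 3.

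YAP and TEAD targets, which respond to cell shape and density, moved with them. Of 18 tested, 16 were called lower in Tas and 1 higher, with a median of -1.27. Ankrd1 had 0, 1 and 4 counts in Tas, against 41, 39 and 37 counts in Pph, and 2, 1 and 1 in WT. It was close to absent everywhere but in Pph (-4.49 ± 0.48, edgeR adjusted p = 3.04e-09). Ccn1 had 35.2, 36.6 and 34.9 CPM in Tas, against 116, 114 and 108 CPM in Pph (-1.66 ± 0.04). Crim1 had 11.0, 11.7 and 10.3 CPM in Tas, against 27.8, 29.7 and 28.2 CPM in Pph (-1.38 ± 0.08). Myof, a membrane repair protein (-2.02), F3, tissue factor (-2.23), and Tgfb2, a transforming growth factor (-1.83), were also lower in Tas. The exception was Ccn2, a matricellular relative of Ccn1, with 85.9, 81.4 and 83.9 CPM in Tas, against 53, 56.3 and 51.0 CPM in Pph (0.65 ± 0.04, edgeR adjusted p = 1.73e-13).

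**Figure D2:**
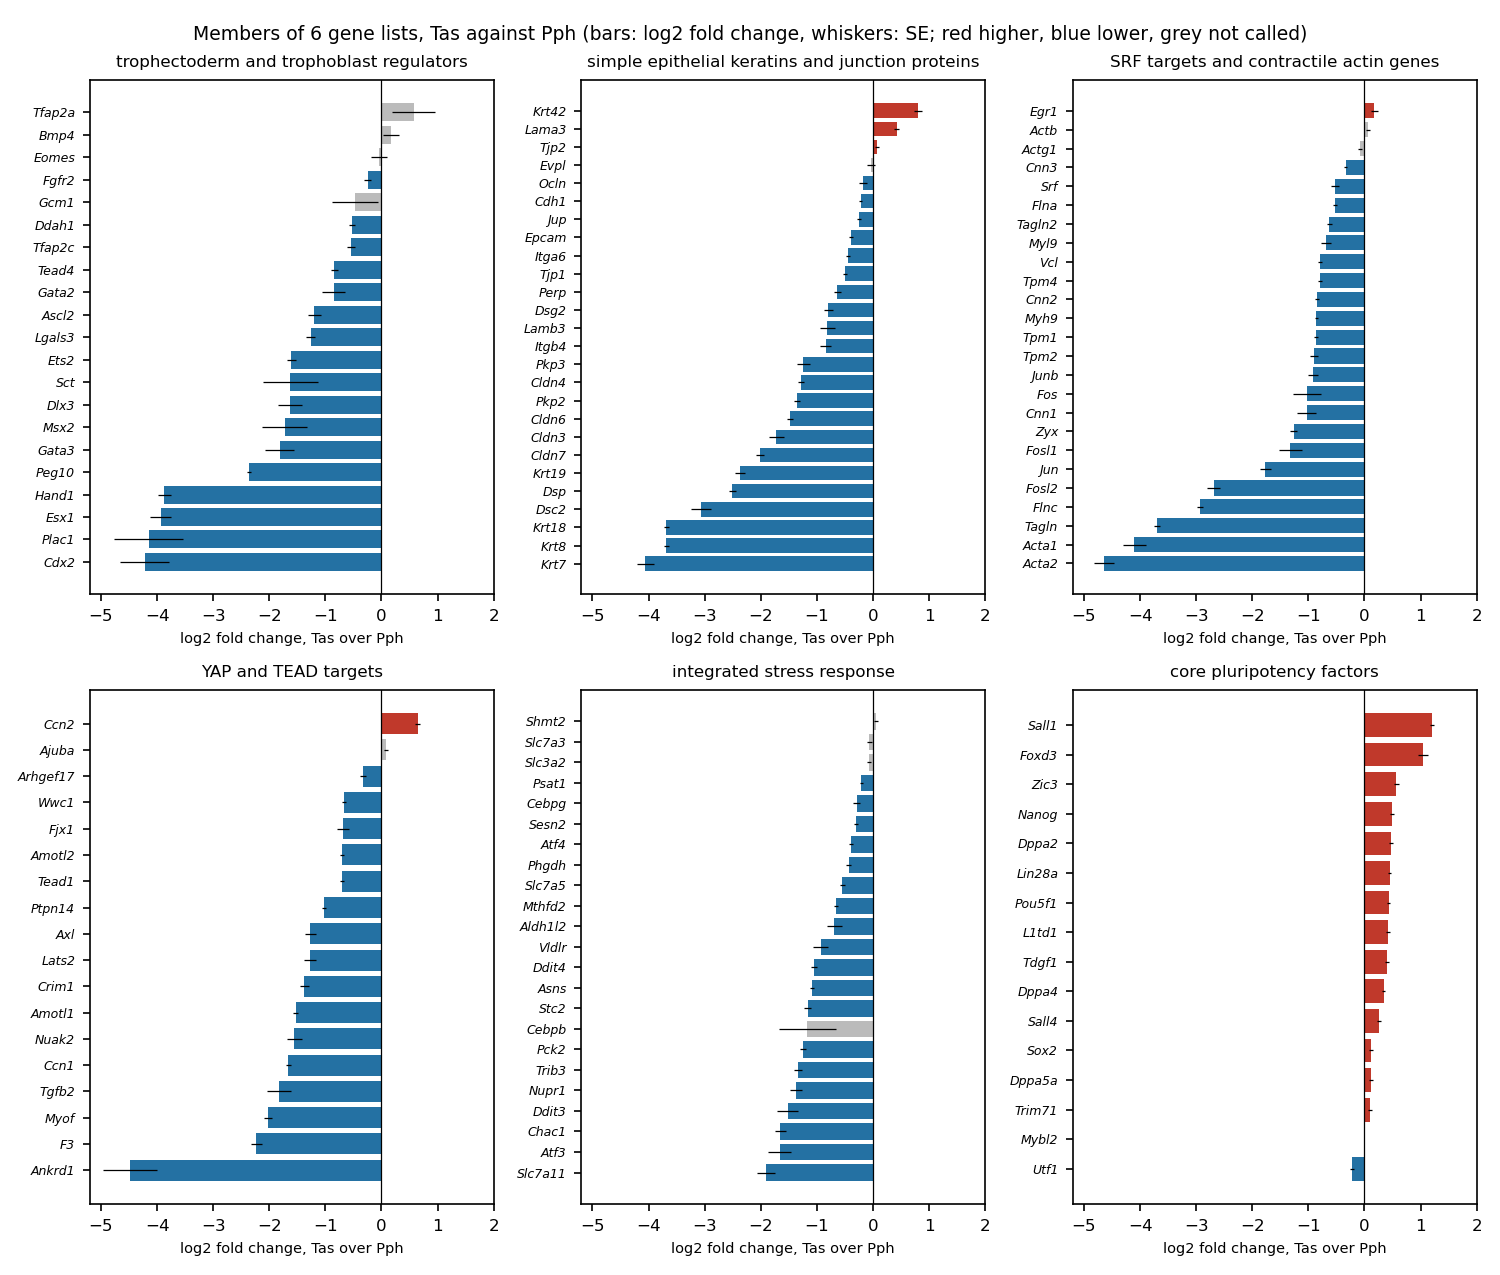
The tested members of 6 gene lists, all but 1 of the keratin list, are drawn with the log2 fold change of Tas over Pph as bars and the SE of the fit as whiskers, red where called higher, blue where called lower and grey where not called. Most bars of the trophectoderm, keratin, SRF, YAP and stress response lists point below 0, while 14 of 16 core pluripotency factors point above it.

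Genes of the trophectoderm, the outer layer of the blastocyst that forms the placenta, were lower in Tas as well. Of 21 tested regulators, 17 were called lower and 0 higher, with a median of -1.26. Hand1, a trophoblast giant cell factor, had 2.65, 2.40 and 2.09 CPM in Tas, against 33.0, 37.3 and 33.9 CPM in Pph (-3.87 ± 0.11, edgeR adjusted p = 1.29e-22). Esx1, an X-linked placental homeobox gene, had 0.649, 0.882 and 0.534 CPM in Tas, against 10.9, 10.7 and 10.3 CPM in Pph (-3.94 ± 0.19). The values of both genes were tight within groups, and WT lay closer to Tas, at 3.12 ± 0.440 CPM for Hand1 and 1.55 ± 0.131 CPM for Esx1. Cdx2, the factor that specifies the lineage, had few reads, with 2, 1 and 4 counts in Tas, against 48, 54 and 32 in Pph (-4.22 ± 0.44). Plac1, a placental membrane protein, had 4, 1 and 0 counts in Tas, against 29, 24 and 40 in Pph (-4.15 ± 0.61).

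Not every regulator of the lineage took part. Eomes did not pass the test (edgeR adjusted p = 0.806) and had 4.92, 6.32 and 5.0 CPM in Tas, against 5.54, 4.70 and 6.55 CPM in Pph. Tfap2a had 0.758, 0.588 and 1.12 CPM in Tas, against 0.544, 0.700 and 0.406 CPM in Pph, with overlapping libraries (edgeR adjusted p = 0.208). Elf5, which maintains trophoblast stem cells, had 5, 4 and 6 counts in Tas, against 3, 7 and 4 counts in Pph, too few to be tested. The summed level of the regulator list was 123 to 126 TPM (a level that also accounts for transcript length) in Tas, 410 to 424 TPM in Pph and 189 to 204 TPM in WT.

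Simple epithelial keratins and junction proteins, which trophectoderm shares with other epithelia, were lower in 23 of 27 tested genes and higher in 3, with a median of -0.84. Krt8, with Krt18 the main intermediate filament pair of simple epithelia, had 35.2, 34.4 and 33.2 CPM in Tas, against 429, 462 and 429 CPM in Pph (-3.69 ± 0.04, edgeR adjusted p = 1.2e-32). Krt18 had 22.1, 22.8 and 23.2 CPM in Tas, against 298, 292 and 287 CPM in Pph (-3.69 ± 0.04). The pair stood at nearly equal folds, and WT lay near Tas at 47.6 ± 1.73 and 32.8 ± 0.554 CPM. Krt7 had 1.19, 0.833 and 0.971 CPM in Tas, against 15.7, 18.5 and 15.6 CPM in Pph (-4.06 ± 0.16). Dsc2, a desmosomal cadherin (-3.06), was lower too. Krt42 went the other way, with 24.9, 27.3 and 23.5 CPM in Tas, against 14.8, 14.7 and 13.9 CPM in Pph (0.80 ± 0.07, edgeR adjusted p = 1.26e-10). In bulk libraries, a lower level from fewer cells of a type and from less RNA per cell cannot be told apart.

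Matrix genes followed. Of 22 tested genes for matrix enzymes and glycoproteins, 17 were called lower in Tas and 1 higher, with a median of -0.78. Thbs1, thrombospondin, had 6.06, 4.61 and 4.71 CPM in Tas, against 70.4, 73.0 and 67.0 CPM in Pph (-3.78 ± 0.08, edgeR adjusted p = 6.85e-26). Every Tas library lay far below every Pph library, with WT on the Tas side at 10.1 ± 0.799 CPM. Lgals1, a secreted lectin (-2.10), and Loxl4, a collagen crosslinker (-2.81), were lower, and Nid1, a basement membrane linker, was the 1 member called higher (0.34).

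Fibrillar collagens showed the pattern at low levels. Col3a1 had 0.108, 0.245 and 0.146 CPM in Tas, against 6.09, 5.95 and 4.77 CPM in Pph (-5.01 ± 0.30, edgeR adjusted p = 5.12e-15). Col1a2 had 0.325, 0.147 and 0.340 CPM in Tas, against 8.05, 7.60 and 8.07 CPM in Pph (-4.84 ± 0.25). The groups were well separated for both genes, which also mark fibroblasts. Of 16 fibroblast markers tested, 12 were called lower in Tas and 2, Mmp2 and Fn1, higher, with a median of -1.10. Their summed level was 498 to 504 TPM in Tas, 410 to 433 TPM in Pph and 343 to 410 TPM in WT, a sum in which Fn1 at 378 ± 4.67 TPM in Tas weighed most. The markers called lower also included Col1a1 (-2.73 ± 0.11), Pdgfrb (-2.01 ± 0.34) and Thy1 (-0.34 ± 0.10). Dcn did not pass the test (edgeR adjusted p = 0.317), and Lum, Postn and Prrx1, with between 0 and 5 counts in each of the 12 libraries, were not tested.

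Among markers of other lineages, the endoderm, mesendoderm and blood lists held more genes called lower than higher, and the neural list was split. Of 16 primitive and extraembryonic endoderm genes, 11 were called lower and 0 higher, with a median of -0.62. The members called lower included the basement membrane genes Col4a1 (-1.33), Col4a2 (-2.31), Lama1, Lamb1, Lamc1 and Sparc, and Cited1, a transcriptional coactivator (-2.09). The defining factor Gata6 had 0.379, 0.294 and 0.146 CPM in Tas, against 0.489, 0.50 and 0.254 CPM in Pph (edgeR adjusted p = 0.315), and Pdgfra, the receptor that marks the lineage, had an adjusted p of 0.489 in the same test. Sox17 had 1, 2 and 0 counts in Tas, against 6, 1 and 2 counts in Pph. Of 15 mesendoderm genes, 5 were called lower (33.3%) and 0 higher, against 29.3% and 28.5% of all tested genes. Among 15 neural genes, 4 were called higher (26.7%) and 5 lower (33.3%), near those shares. The largest rise was that of Pax6, a neural and eye factor, with 11.1, 12.3 and 11.2 CPM in Tas, against 1.96, 2.1 and 2.13 CPM in Pph (2.48 ± 0.13, edgeR adjusted p = 3.79e-16). Of 5 blood and endothelial markers tested, 4 were called lower and 1, Tek, higher, with a median of -0.69. Runx1 averaged 0.461 CPM in Tas, against 3.99 CPM in Pph (-3.07 ± 0.31), and Cd68 13.3 against 21.3 CPM (-0.69 ± 0.08). Another 9 listed markers were not tested, among them Ptprc, with 0, 1 and 4 counts in Tas, against 7, 6 and 11 in Pph.

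**Figure D3:**
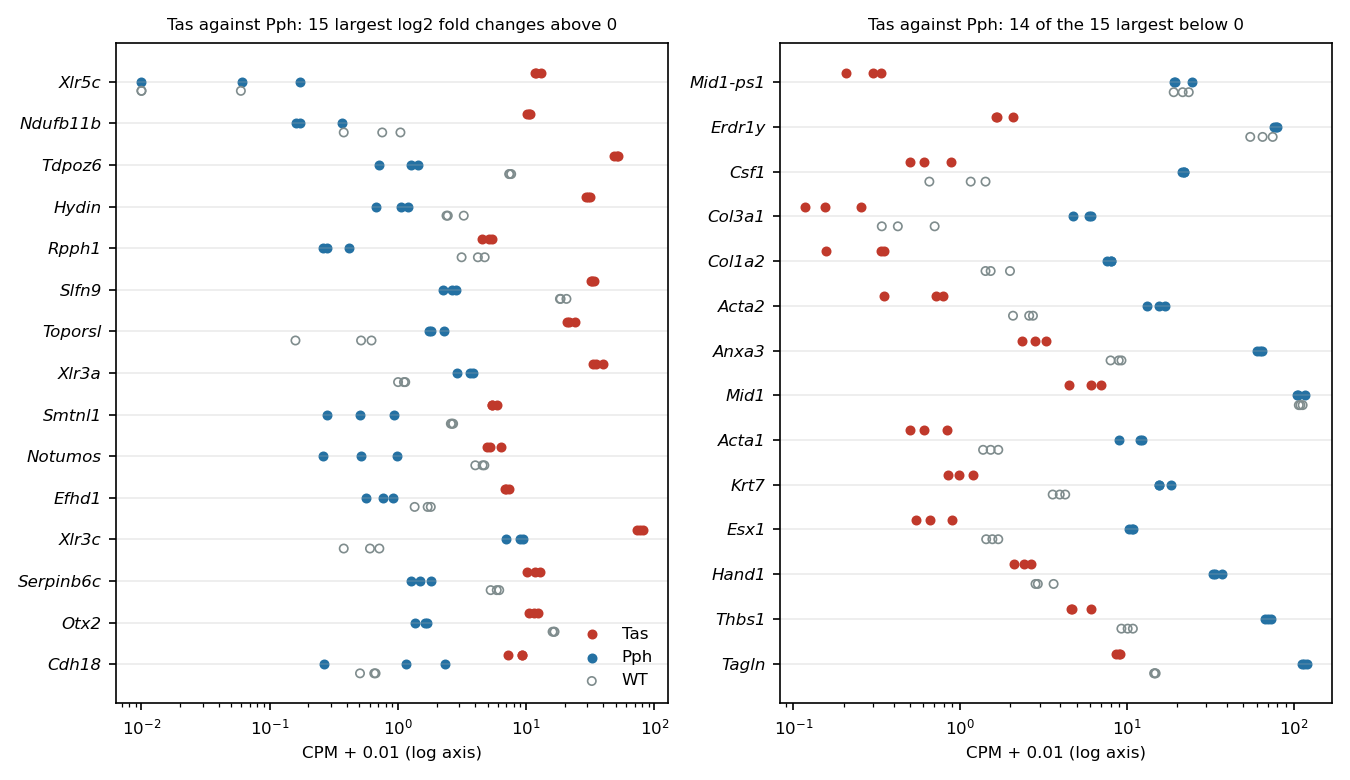
Levels of the 15 largest positive (left) and 14 of the 15 largest negative (right) fold changes among named genes of at least 5 CPM are shown for each Tas (red), Pph (blue) and WT (open) library, as CPM + 0.01 on a log axis. No Tas library overlaps a Pph library for these genes, and the WT libraries lie between the groups for some genes and beside one of them for others.

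Signalling genes included some far lower in Tas than in Pph. Csf1, the growth factor of macrophages, had 0.595, 0.490 and 0.874 CPM in Tas, against 22.0, 22.0 and 21.5 CPM in Pph. The groups did not approach each other, and WT stood beside Tas at 1.07 ± 0.390 CPM (-5.04 ± 0.17, edgeR adjusted p = 7.6e-21). Lif, the cytokine that keeps mouse embryonic stem cells undifferentiated, had 4.44, 4.51 and 4.56 CPM in Tas, against 19.4, 21.4 and 20.3 CPM in Pph (-2.17 ± 0.11). Its WT level of 5.87 ± 0.956 CPM was nearer Tas. Anxa3, a calcium-dependent membrane-binding protein, had 3.25, 2.79 and 2.33 CPM in Tas, against 63.2, 64.4 and 60.4 CPM in Pph (-4.49 ± 0.09, edgeR adjusted p = 1.54e-26). Of 19 genes of FGF-ERK feedback and targets, 13 were called lower and 5 higher, with a median of -0.63. The lower ones held the feedback inhibitor Spry1 (-1.28). The higher ones held the ligand Fgf4 (0.41) and the receptor Fgfr1 (0.57), which lies on chromosome 8. Without the genes of chromosomes 8, 16 and 19 in the fit, 3 members were called higher. That setting leaves out Fgfr1 and Etv5 (chromosome 16), which were both called higher in the full fit.

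In the Nodal and BMP pathway, 8 of 19 genes were called higher (42.1%) and 6 lower (31.6%), against 28.5% and 29.3% of all tested genes. The target Id1 had 139, 134 and 135 CPM in Tas, against 78.4, 84.9 and 75.3 CPM in Pph (0.77 ± 0.04, edgeR adjusted p = 5.79e-16), while its relative Id2 was lower (-1.01). Inhbb, a subunit of activin, had 1.62, 0.882 and 1.94 CPM in Tas, against 0.217, 0.300 and 0.254 CPM in Pph (2.49 ± 0.37). Both groups were below WT, at 4.45 ± 0.195 CPM. In the Wnt pathway, 4 of 20 genes were called higher and 9 lower. Notum, a secreted enzyme that inactivates Wnt proteins, had 26.5, 26.2 and 24.1 CPM in Tas, against 5.60, 6.70 and 6.60 CPM in Pph (2.02 ± 0.09, edgeR adjusted p = 2.52e-18). Its neighbouring transcript Notumos had 6.39, 4.95 and 5.24 CPM in Tas, against 0.978, 0.250 and 0.507 CPM in Pph (3.26 ± 0.28). WT lay beside Tas for both, and since strand-specific counting is not stated, reads of the pair cannot be assigned with certainty.

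Igf2, the fetal growth factor expressed from the paternal allele, was among the largest falls of an abundant gene. It had 22.9, 22.0 and 22.0 CPM in Tas, against 280.3, 282 and 282 CPM in Pph, with WT at 34.2 ± 1.80 CPM (-3.66 ± 0.05, edgeR adjusted p = 8.68e-32). Of 14 genes of the insulin-like growth factor pathway, 8 were called lower and 2 higher, with a median of -0.48. The adaptor Irs2 had 9.42, 11.3 and 10.1 CPM in Tas, against 57.9, 61.2 and 55.8 CPM in Pph (-2.51 ± 0.08). Igfbp4 (-1.81) and Igfbp3 (-1.57), which bind the factors outside the cell, fell with it, whereas the RNA-binding proteins Igf2bp2 and Igf2bp3 were both higher by 0.59.

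Imprinted genes, expressed from 1 parental allele, were called lower for 20 of 32 and higher for 8, with a median of -0.39. Peg10, a retrotransposon-derived gene needed for the placenta, had 176, 179.6 and 180.4 CPM in Tas, against 929, 905 and 929.9 CPM in Pph (-2.37 ± 0.03, edgeR adjusted p = 3.58e-30). Mest, a hydrolase-like gene of the mesoderm, had 25.8, 27.9 and 26.2 CPM in Tas, against 118, 108 and 108 CPM in Pph (-2.06 ± 0.05). The WT levels differed in place, at 449.5 ± 25.5 CPM between the groups for Peg10 and at 137 ± 4.18 CPM beside Pph for Mest. Grb10, a growth inhibitor, was lower (-1.60). Impact, a regulator of translation (0.80), and the noncoding RNA H19 (0.91) were higher in Tas, H19 at 1.79, 1.76 and 1.80 CPM in Tas, against 1.03, 1.00 and 0.812 CPM in Pph.

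The integrated stress response, in which phosphorylation of a translation factor raises ATF4 and its targets for amino acid supply and redox balance, was lower in most members. Of 23 tested genes, 19 were called lower and 0 higher, with a median of -0.93. Asns, printed above with its response element, had 139, 139 and 138 CPM in Tas, against 294, 292 and 296 CPM in Pph (-1.08 ± 0.03, edgeR adjusted p = 1.01e-21). Chac1 had 5.79, 5.49 and 6.07 CPM in Tas, against 17.6, 18.8 and 18.3 CPM in Pph (-1.65 ± 0.10). For both genes the groups were clearly apart, and WT lay between them for Asns at 215 ± 8.17 CPM and below both for Chac1 at 3.57 ± 0.389 CPM. Atf3 had 1.03, 1.86 and 1.80 CPM in Tas, against 5.0, 4.70 and 5.28 CPM in Pph (-1.66 ± 0.20). Nupr1 had 6.28, 8.09 and 8.93 CPM in Tas, against 20.8, 20.9 and 18.8 CPM in Pph (-1.37 ± 0.10). Slc7a11, the cystine transporter, was also lower (-1.91 ± 0.15), as was Ddit3, a proapoptotic factor (-1.52 ± 0.18). Atf4 itself differed less, with 217, 215 and 213 CPM in Tas, against 285, 280.0 and 278 CPM in Pph (-0.39 ± 0.03), and the amino acid transporter subunit Slc3a2 did not pass the test (edgeR adjusted p = 0.0772). The summed level of the list was 1508 to 1534 TPM in Tas, 2236 to 2281 TPM in Pph and 1533 to 1565 TPM in WT.

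Metabolic and other stress lists had smaller medians, of either sign. Cholesterol synthesis was called lower for 17 of 24 genes and higher for 2, with a median of -0.28. Interferon response and antigen presentation genes were called lower for 14 of 25 and higher for 5, with a median of -0.45. Oasl2, an interferon-induced gene, had 0.541, 0.833 and 0.680 CPM in Tas, against 4.13, 3.50 and 3.60 CPM in Pph and 6.95 ± 0.213 CPM in WT, so that both null groups were below WT (-2.43 ± 0.21). In the p53 list, 7 of 26 genes were called higher (26.9%) and 9 lower (34.6%), near the shares of all tested genes (28.5% and 29.3%). Its median was -0.09, and the cell cycle inhibitor Cdkn1a did not pass the test (edgeR adjusted p = 0.298). Glycolysis and hypoxia genes were split, 12 higher and 9 lower of 28 around a median of 0.01, with the angiogenic factor Vegfa at 11.4, 10.7 and 11.5 CPM in Tas, against 47.5, 47.6 and 42.1 CPM in Pph (-2.03 ± 0.08), and Ldha, lactate dehydrogenase, higher (0.49 ± 0.03).

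Among genes of the antioxidant response and glutathione transferases, 12 of 24 were called lower and 6 higher, of which 2 higher ones were left without the genes of chromosomes 8, 16 and 19. The pi-class transferases were high in Tas. Gstp1 had 52.5, 53.4 and 54.7 CPM in Tas, against 22.3, 21.3 and 21.4 CPM in Pph (1.31 ± 0.05, edgeR adjusted p = 8.54e-19), and Gstp2 had 9.31, 7.99 and 10.1 CPM in Tas, against 1.47, 1.45 and 1.42 CPM in Pph (2.65 ± 0.15). Both stood below WT in each null group, at 68.8 ± 3.57 and 20.3 ± 0.725 CPM in WT. These genes lie on chromosome 19, whose genes were higher in Tas as a whole (below), and as near copies they may share reads. Hmox1, heme oxygenase, was higher as well (1.01 ± 0.04) and lies on chromosome 8.

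Pluripotency genes were higher in Tas by small steps. Of 16 core factors, 14 were called higher and 1 lower, with a median of 0.41. Pou5f1, the central factor of the pluripotent state, had 959.7, 966 and 964 CPM in Tas, against 701, 735 and 703 CPM in Pph (0.43 ± 0.03, edgeR adjusted p = 1.71e-13). Nanog had 143, 136 and 137 CPM in Tas, against 99.2, 98.5 and 98.3 CPM in Pph (0.49 ± 0.04). Each pair of groups was separate but within a factor of 2, and WT lay at 946 ± 36.5 CPM for Pou5f1 and 166 ± 0.754 CPM for Nanog. Sox2 differed by 0.12 ± 0.03, with 336, 343 and 351 CPM in Tas, against 314, 322 and 313 CPM in Pph. Sall1, a zinc finger repressor, had 421, 415 and 418 CPM in Tas, against 189, 182 and 176 CPM in Pph (1.20 ± 0.03), and lies on chromosome 8. Foxd3, a forkhead factor, was higher (1.04 ± 0.08), and Utf1, a chromatin-bound cofactor, was the member called lower (-0.22 ± 0.04).

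Naive pluripotency genes, active in the early epiblast, were called higher for 14 of 24 and lower for 6, with a median of 0.26. Nr5a2, an orphan nuclear receptor, had 111, 109 and 109 CPM in Tas, against 29.8, 28.0 and 31.7 CPM in Pph (1.88 ± 0.05, edgeR adjusted p = 1.61e-24). Tcl1, an AKT coactivator, had 17.5, 22.7 and 21.1 CPM in Tas, against 2.66, 4.15 and 4.06 CPM in Pph (2.49 ± 0.12). Neither gene overlapped between groups, with WT below Tas for both, at 43.8 ± 0.982 and 15.2 ± 0.505 CPM. Zfp42, a classical marker of the naive state on chromosome 8, was higher (1.07 ± 0.04). Klf4 was lower, with 4.33, 4.85 and 4.71 CPM in Tas, against 7.66, 8.40 and 5.68 CPM in Pph (-0.64 ± 0.13), both far under the WT mean of 35.2 ± 1.66 CPM. Esrrb did not pass the test (edgeR adjusted p = 0.188).

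Formative and primed genes, active when cells leave the naive state, were split, with a median of 0.07. Of 18 genes, 6 were called higher (33.3%) and 7 lower (38.9%), against 28.5% and 29.3% of all tested genes. Otx2, the factor that opens the exit from naive pluripotency, had 11.6, 12.3 and 10.4 CPM in Tas, against 1.69, 1.35 and 1.62 CPM in Pph (2.88 ± 0.13, edgeR adjusted p = 9.65e-18). Pou3f1, an octamer factor of the epiblast, went the other way, with 11.5, 11.4 and 10.1 CPM in Tas, against 34.7, 31.7 and 32.0 CPM in Pph (-1.58 ± 0.08). WT exceeded both null groups for each of these genes, at 16.4 ± 0.298 and 51.3 ± 5.95 CPM, so Otx2 was lowest in Pph and Pou3f1 lowest in Tas. Fgf5, a marker of primed cells, was near absent in both, with 1, 1 and 1 counts in Tas, against 5, 2 and 5 counts in Pph, and its call as lower did not survive leaving out any single Tas library.

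The largest rises in Tas included the Xlr family, X-linked lymphocyte-regulated genes related to a meiotic chromosome protein. All 9 tested members were called higher in Tas, with a median of 3.39. Xlr5c had 12, 13.0 and 11.7 CPM in Tas, against 0.163, 0 and 0.051 CPM in Pph, where the Pph values stand for 3, 0 and 1 counts (edgeR adjusted p = 1.52e-18). With so few counts its fitted log2 fold change of 7.35 ± 0.31 depends on the prior count. Xlr3c had 81.3, 77.0 and 73.2 CPM in Tas, against 8.91, 6.90 and 9.49 CPM in Pph (3.19 ± 0.08). Xlr3a had 39.6, 33.0 and 34.9 CPM in Tas, against 3.81, 2.85 and 3.60 CPM in Pph (3.39 ± 0.10). The family was thus present in every Tas library and lower, or at a few counts, in Pph. The size of the difference varied among members, with a smallest log2 fold change of 1.16. Xlr5b had 35, 51 and 31 counts in Tas, against 0, 0 and 0 counts in Pph, at least 12.1-fold higher in Tas when a floor of 3 counts per library is taken for Pph. The summed level of the family was 242.5 to 259.6 TPM in Tas, 44.3 to 54.9 TPM in Pph, 226.5 to 243.4 TPM in MP8 and 7.5 to 8.8 TPM in WT. Members are near copies of one another, and how reads were divided among them is uncertain.

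Several retrocopies and germline genes stood with them. Toporsl, an intronless relative of the ubiquitin ligase gene Topors, had 21.4, 20.9 and 23.8 CPM in Tas, against 1.79, 1.75 and 2.28 CPM in Pph (3.50 ± 0.13, edgeR adjusted p = 5.63e-20). Ndufb11b, a copy of a gene for a respiratory chain subunit, had 10.6, 10.4 and 10.2 CPM in Tas, against 0.163, 0.150 and 0.355 CPM in Pph (5.50 ± 0.23). D1Pas1, the testis retrocopy of an RNA helicase gene, had 106, 105 and 107 CPM in Tas, against 43.7, 43.9 and 43.7 CPM in Pph (1.28 ± 0.04). In each case the Tas values were more than 2 times the Pph values, and MP8 cells stood nearer to Tas, at 22.0 ± 0.614, 24.9 ± 0.807 and 102 ± 2.14 CPM. The ribosomal protein retrocopy Rpl10l had 49.5, 54.8 and 53.8 CPM in Tas, against 11.9, 14.8 and 12.9 CPM in Pph (2.0 ± 0.07). In WT these genes had means of 0.422 ± 0.242, 0.715 ± 0.335, 12.8 ± 0.414 and 8.38 ± 0.738 CPM in the same order. Reads of such copies can be shared with their parent genes.

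Germline genes as a list were divided, with 12 of 30 called higher (40.0%) and 10 lower (33.3%), against 28.5% and 29.3% of all tested genes. Hormad1, a meiotic chromosome axis protein, had 8.55, 8.82 and 8.55 CPM in Tas, against 2.45, 2.85 and 2.89 CPM in Pph (1.66 ± 0.14, edgeR adjusted p = 7.54e-12), and Smc1b, a meiotic cohesin subunit, was also higher (1.16 ± 0.17). Taf7l, a germ cell transcription factor subunit, was lower (-1.95 ± 0.28), as was Dazl, an RNA-binding protein of germ cells (-1.40 ± 0.33). Of 11 Mage genes, 3 were called higher and 3 lower (27.3% each), near the shares of all tested genes (28.5% and 29.3%). Of 4 Rhox genes, 2 were called higher, Rhox5 with 33.0, 34.9 and 31.6 CPM in Tas, against 18.3, 19.5 and 17.4 CPM in Pph (0.85 ± 0.07).

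A few large rises in Tas came from genes outside these families. Hydin, a protein of motile cilia on chromosome 8, had 30.1, 31.4 and 29.4 CPM in Tas, against 1.20, 1.05 and 0.660 CPM in Pph (4.97 ± 0.14, edgeR adjusted p = 2.47e-23). Tdpoz6, of a multicopy family of oocyte and embryo genes, had 51.6, 51.3 and 48.3 CPM in Tas, against 1.25, 0.700 and 1.42 CPM in Pph (5.48 ± 0.13). WT lay between the groups for both, at 2.69 ± 0.485 and 7.47 ± 0.138 CPM. Slfn9, a Schlafen gene, had 33.8, 32.0 and 32.5 CPM in Tas, against 2.23, 2.65 and 2.84 CPM in Pph (3.66 ± 0.12). Rpph1, the RNA of ribonuclease P, had 5.36, 5.15 and 4.52 CPM in Tas, against 0.272, 0.250 and 0.406 CPM in Pph (3.99 ± 0.27). Cdh18, a neuronal cadherin, was the least even, with 7.14, 9.21 and 9.18 CPM in Tas, against 1.14, 2.30 and 0.254 CPM in Pph (2.78 ± 0.38, edgeR adjusted p = 0.000117). Smtnl1, Efhd1 and Serpinb6c, related to smooth muscle contraction, mitochondrial calcium binding and protease inhibition, were higher by 3.29, 3.24 and 2.94.

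Among abundant transcripts, a gene model rose as well, Gm43549 on chromosome 3, named here after its values were seen because the rule for named genes left out models. It had 1100.1, 1115 and 1114 CPM in Tas, against 52.3, 54.8 and 57.1 CPM in Pph (4.34 ± 0.04, edgeR adjusted p = 1.07e-35). MP8 cells had 1212 ± 46.3 CPM and WT 3.56 ± 0.309 CPM, so that Tas stood with MP8, Pph well below them and WT lowest. AI662270 on chromosome 11, named in the same way, had 94.6, 95.9 and 100.2 CPM in Tas, against 4.89, 5.60 and 5.68 CPM in Pph (4.16 ± 0.07), with WT between them at 34.9 ± 3.96 CPM.

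Among chromatin genes, most differences were small and a few were large. Wiz, the zinc finger partner of the H3K9 methyltransferases EHMT1 and EHMT2, had 557, 543 and 546 CPM in Tas, against 88.2, 89.4 and 92.1 CPM in Pph (2.61 ± 0.04, edgeR adjusted p = 3.37e-31). The groups were far apart, with WT nearer Tas at 408 ± 16.2 CPM, while Ehmt1 (0.11) and Ehmt2 (-0.12) differed little. Of 12 genes of H3K9 methylation and HP1, 6 were called higher and 3 lower, with a median of 0.10. Dnmt3l, the cofactor of the de novo DNA methyltransferases, had 615, 636 and 630.0 CPM in Tas, against 192, 197 and 191 CPM in Pph (1.70 ± 0.03, edgeR adjusted p = 2.92e-28). WT lay between the groups, at 401 ± 2.94 CPM. Hells, a remodeller needed for DNA methylation that lies on chromosome 19, had 678, 653 and 665 CPM in Tas, against 375, 337 and 372 CPM in Pph (0.88 ± 0.04). Of 12 DNA methylation genes, 5 were called higher (41.7%) and 4 lower (33.3%), with a median of 0.01. The shares of all tested genes were 28.5% and 29.3%. The others called higher were Tet2, which oxidises methylcytosine (0.88), Uhrf1 (0.57) and the maintenance enzyme Dnmt1 (0.29). Those called lower were Zdbf2 (-0.47), Tet3, a relative of Tet2 (-0.42), the de novo enzyme Dnmt3b (-0.29) and the methyl-binding family member Mbd3 (-0.19). Of 21 Polycomb subunits, 10 were called higher and 2 lower, the largest being Epop, a modulator of Polycomb repressive complex 2 (0.88 ± 0.04), and Pcgf5, of a variant of complex 1 (-0.80 ± 0.08).

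Among the most abundant transcripts, most differences were small. Cytosolic ribosomal protein genes were called higher in Tas for 74 of 81 and lower for 1, with a median of 0.23. Of those called higher, 3 differed by at least 2-fold, and the largest log2 fold change in the list was 3.56. Rpl32 had 635, 653 and 641 CPM in Tas, against 400.0, 426 and 414 CPM in Pph (0.64 ± 0.04, edgeR adjusted p = 2.35e-12), and WT had 613 ± 47.3 CPM, close to Tas. Rpl24 on chromosome 16 was the exception, with 543, 542 and 536 CPM in Tas, against 715, 686 and 689 CPM in Pph (-0.37 ± 0.03). By difference in TPM, Gapdh, a glycolytic enzyme (0.36 ± 0.06), Npm1, a nucleolar chaperone (0.34 ± 0.03), and Eef1a1, an elongation factor (0.19 ± 0.03), were among the largest rises. The mitochondrial mRNAs mt-Co1 (-0.08 ± 0.02) and mt-Nd2 (-0.37 ± 0.03), the ferritin chain Ftl1 (-0.25 ± 0.03) and the chaperone Hsp90aa1 (-0.35 ± 0.03) were among the largest falls. Of 15 mitochondrially encoded genes, 2 were called higher (13.3%) and 5 lower (33.3%), against 28.5% and 29.3% of all tested genes.

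Cell cycle genes were called higher for 13 of 30 (43.3%) and lower for 10 (33.3%), with a median of 0.04. The shares of all tested genes were 28.5% and 29.3%. The replication licensing factor Mcm5, on chromosome 8, was higher (1.13 ± 0.04), and the inhibitor Cdkn2b was lower (-0.97 ± 0.15). Of 40 tested histone genes, 10 were called higher and 6 lower. Clustered protocadherins, neuronal adhesion genes, were called lower for 14 of 31 (45.2%) and higher for 4 (12.9%), with a median of -0.33. Within the list, Pcdha6 had 9.36, 8.62 and 9.57 CPM in Tas, against 4.78, 5.90 and 4.72 CPM in Pph (0.84 ± 0.21) and 0.372 ± 0.399 CPM in WT.

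**Figure D4:**
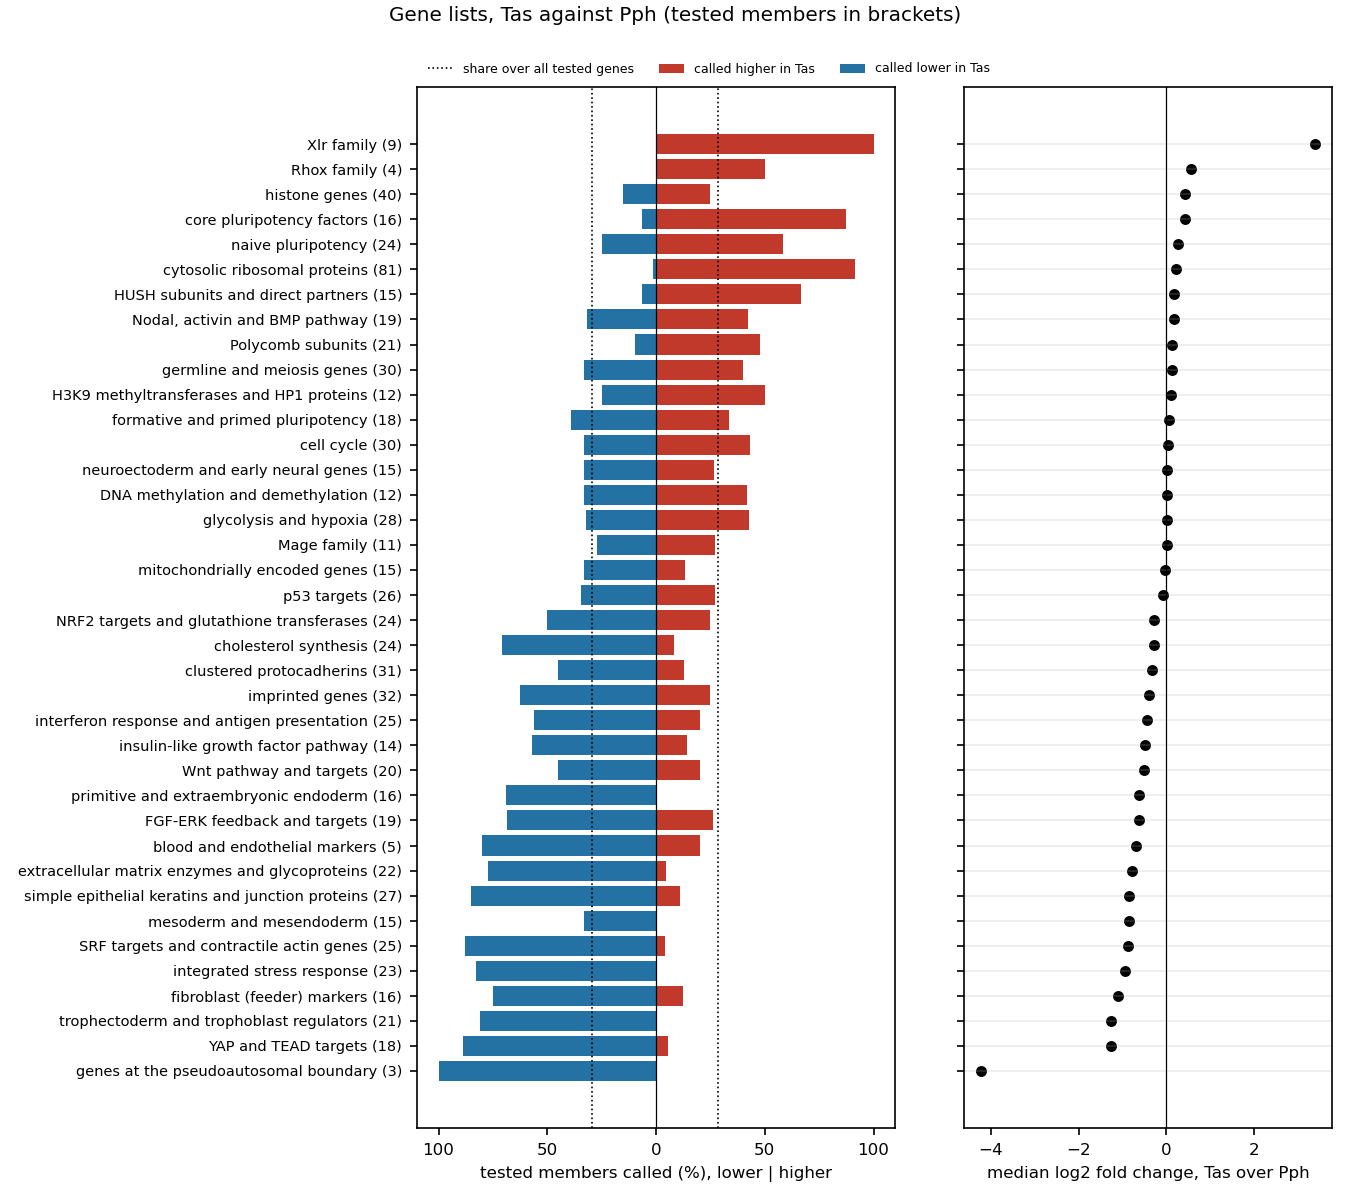
For each gene list, with its number of tested members in brackets, the left panel shows the percent of members called higher in Tas (red, to the right) and lower (blue, to the left), with dotted lines at the shares over the tested genes, 28.5% and 29.3%. The right panel shows the median log2 fold change of Tas over Pph, from 3.39 for the Xlr family to -4.23 for 3 genes at the pseudoautosomal boundary.

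Genes at the pseudoautosomal boundary, where the X and Y chromosomes pair in male meiosis, were nearly lost from Tas. Mid1, a ubiquitin ligase gene that spans the mouse boundary, had 6.06, 6.96 and 4.52 CPM in Tas, against 105, 117 and 106 CPM in Pph (-4.23 ± 0.08, edgeR adjusted p = 8.98e-23). Its copy Mid1-ps1 had 0.325, 0.196 and 0.291 CPM in Tas, against 19, 24.6 and 19.4 CPM in Pph (-6.26 ± 0.24). Erdr1y had 1.62, 2.06 and 1.65 CPM in Tas, against 79.0, 76.1 and 78.0 CPM in Pph (-5.44 ± 0.16), and Erdr1x had 0.704, 0.931 and 0.728 CPM in Tas, against 9.19, 8.60 and 9.95 CPM in Pph (-3.54 ± 0.18). In WT, Mid1 had 110.3 ± 2.93 CPM, Mid1-ps1 21.4 ± 2.22 CPM, Erdr1y 65.0 ± 9.98 CPM and Erdr1x 6.31 ± 1.13 CPM, so the low values were those of Tas. Steroid sulfatase, Sts, had 0, 0 and 0 counts in Tas, against 4, 3 and 1 counts in Pph, too few to be tested. The gene model Gm15247 of the X chromosome, named after its values were seen, had 0, 0 and 1 counts in Tas, against 129, 154 and 141 counts in Pph. These sequences are repeated and partly shared between copies, so the split among them is uncertain.

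Genes of the Y chromosome outside that region kept their reads in both groups. Uty had 32.7, 32.1 and 33.1 CPM in Tas, against 31.4, 29.3 and 33.9 CPM in Pph, and did not pass the test (edgeR adjusted p = 0.498). Ddx3y had 94.1, 84.5 and 89.9 CPM in Tas, against 108, 96.3 and 104 CPM in Pph (-0.20 ± 0.05, edgeR adjusted p = 0.000885). Kdm5d had 25.6, 25.9 and 28.4 CPM in Tas, against 34.7, 33.6 and 34.3 CPM in Pph (-0.36 ± 0.07). No Tas library lacked the Y-linked transcripts.

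By chromosome, genes of at least 5 CPM were shifted as groups most on chromosomes 19 and 8, and less on 16 and 6. Over the 11297 genes of that level, 35.8% were called higher in Tas and 30.2% lower. On chromosome 19, 257 of 372 genes (69.1%) were called higher and 44 (11.8%) lower, with a median of 0.37 and 80.9% of genes above 0. On chromosome 8, 378 of 607 genes (62.3%) were called higher and 112 (18.5%) lower, with a median of 0.35 and 74.0% above 0. On chromosome 16, 97 of 354 genes (27.4%) were called higher and 168 (47.5%) lower, with a median of -0.10. On chromosome 6, 214 of 480 genes (44.6%) were called higher and 130 (27.1%) lower, with a median of 0.09 and 58.3% above 0, the highest median of the other 17 chromosomes with enough genes, whose lowest was -0.02.

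The shifts were alike in every library of a group. Relative to the mean of the Pph libraries, the median of chromosome 19 was 0.35, 0.36 and 0.36 in the 3 Tas libraries, and that of chromosome 8 was 0.32, 0.35 and 0.32. Against WT, genes of chromosome 8 had a median of 0.34 in Tas and -0.05 in Pph, and genes of chromosome 19 had 0.26 in Tas and -0.08 in Pph. Chromosome 16 had 0.10 in Tas and 0.20 in Pph, and chromosome 6 had 0.08 in Tas and -0.03 in Pph. Both sets of values share the WT libraries. When the genes of chromosomes 8, 16 and 19 were left out of the scaling and the test, 4154 genes were called higher and 4299 lower, with 560 and 1261 at 2-fold or more.

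**Figure D5:**
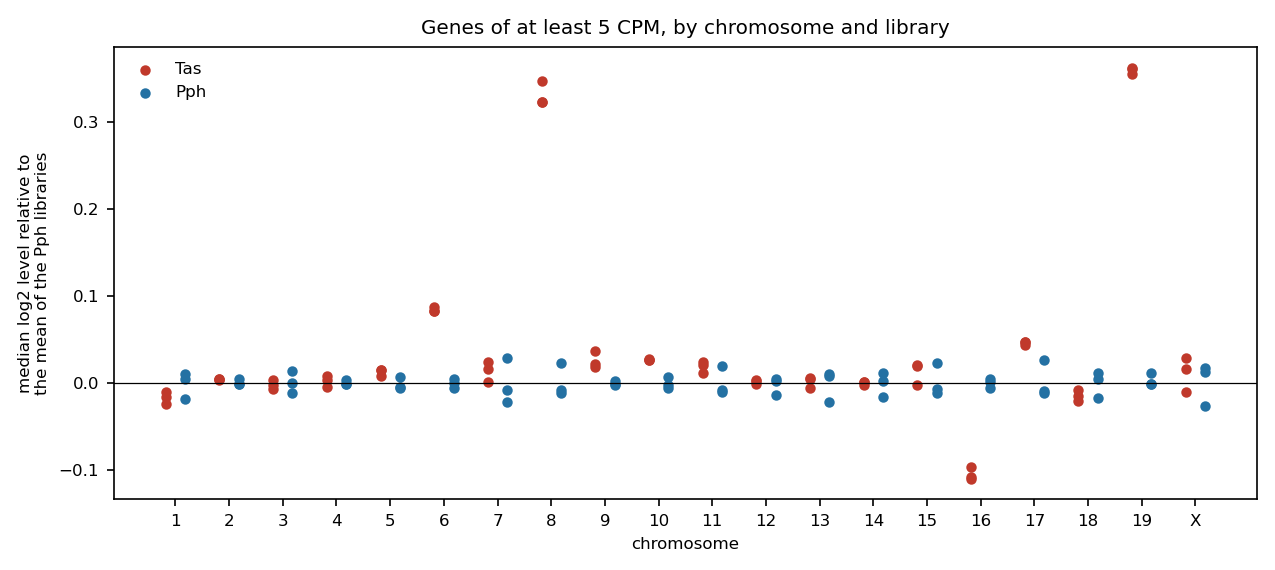
For each chromosome, points give the median over genes of at least 5 CPM of the log2 level relative to the mean of the Pph libraries, for each Tas (red) and Pph (blue) library. The Tas libraries stand at 0.32 to 0.35 on chromosome 8 and at 0.35 to 0.36 on chromosome 19, and near -0.10 on chromosome 16, while the Pph libraries stay near 0.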

How the data were processed

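RNA from mouse embryonic stem cells was made into TruSeq libraries from total RNA, per the labels' protocols. The submitters' processing notes name FastQC, HISAT2 2.1.0, RSEM, DESeq 1.26.0 and genome build GRCm39, without their order. The authors deposited expected counts per gene and TPM, in a table for each null genotype with the same WT values in each. The authors' deposited fold, log2 fold change and p-value columns, set against WT, were not used. Of these counts 32.5% were not whole (tolerance 1e-9).

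Counts were rounded and tested with edgeR 4.0.16 in R 4.3.3 (quasi-likelihood test, TMM scaling, filterByExpr by group). The fit gave each of the 4 genotypes a mean over 12 libraries, with 8 residual degrees of freedom and a common biological coefficient of variation of 0.042. MP8 and WT libraries entered the estimate of the spread and the filter. A call needed a Benjamini-Hochberg adjusted p of at most 0.05 over 16840 genes, and SE is the absolute log2 fold change divided by the square root of its F statistic. CPM used effective library sizes. TPM was used only for sums over lists and for differences of level. The test was also run on simulated counts in which a small set of genes was changed by known folds. No chromosome was shifted as a whole there, so scaling under such shifts was not checked.

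The comparison, members and gene lists were chosen with earlier results of these data known. Named genes were the targeted genes and HUSH partners, the 15 largest rises and falls among called genes without overlap and of at least 5 CPM in the higher group, the 8 largest differences in TPM each way, up to 5 called members per list each way, and members described as not called. Gene models were left out of the sets of largest changes and TPM differences. A few genes that the rule names are counted but not reported here. Vcl, Myl9, Crim1, Asns, Atf4, Pou5f1, Sox2, Ddx3y, Kdm5d, Neat1 and the models named in the text were added after their values were seen, the first 4 because their promoters held the motif. Lists are described by counts and medians, with no test of the list. A symbol was missing for 525 listed genes, and 230 symbols stood for more than 1 gene. Chromosomes and gene types were looked up by gene identifier in GENCODE M21, which held 51933 genes (90.8%). The remaining genes had no chromosome and counted as not protein coding. Gene coordinates were not used since that annotation is on another build. Alternatives were RLE and upper-quartile scaling, DESeq2 1.42.0, no filter, the 6 libraries alone, a replicate block, leaving out chromosomes 8, 16 and 19, no minimum CPM for chromosome medians, and leaving out each library.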

Additional observations from a re-analysis of the deposited data

Results flagged for a closer look

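For 13 of the genes with the largest differences, Tas and Pph lay on opposite sides of WT, each called and at least 2-fold away from it (26.2% and 25.5% of tested genes were called higher and lower in Tas than in WT, and 30.6% and 25.7% in Pph). A WT level between the groups was common. The WT mean lay between the Tas and Pph means for 1106 of the 1428 genes at least 2-fold lower in Tas. It did so for 336 of the 634 genes at least 2-fold higher. How many of these were also called and 2-fold away from WT on both sides is not given here. The test of the difference is the direct contrast, and the values against WT share the same 3 WT libraries.

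Of these genes, 7 were lower in Tas. Col3a1 differed by -5.01 between Tas and Pph, with -1.47 in Tas and 3.54 in Pph against WT. Col1a2 differed by -4.84, with -2.57 in Tas and 2.27 in Pph. Acta2 differed by -4.64, with -2.01 in Tas and 2.64 in Pph. These are matrix and contractile genes, as is Acta1, which differed by -4.10, with -1.24 in Tas and 2.86 in Pph. Anxa3 differed by -4.49, with -1.65 in Tas and 2.84 in Pph. Krt7 differed by -4.06, with -1.98 in Tas and 2.08 in Pph. Esx1 differed by -3.94, with -1.16 in Tas and 2.77 in Pph.

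The other 6 were higher in Tas. Ndufb11b differed by 5.50, with 3.86 in Tas and -1.64 in Pph against WT. Tdpoz6 differed by 5.48, with 2.75 in Tas and -2.73 in Pph. Hydin differed by 4.97, with 3.49 in Tas and -1.47 in Pph. The remaining genes were Smtnl1, which differed by 3.29 (1.09 in Tas and -2.20 in Pph), Efhd1, by 3.24 (2.12 and -1.12 in the same order), and Serpinb6c, by 2.94 (1.01 in Tas and -1.94 in Pph).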

How the results depend on the processing

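Under the alternatives run, the number of genes called lay between 8453 and 9842, and the numbers at 2-fold or more between 560 and 792 higher in Tas and between 1261 and 1601 lower, each within 1.5 times the value reported. The direction with more calls turned to 5038 higher and 4736 lower under RLE scaling to 4598 higher and 4247 lower under DESeq2 and to 4928 higher and 4914 lower with no filter on low counts, while the scalings moved the median of all genes by at most 0.0165. Leaving out 1 library gave 9013 to 9258 called genes. Same-numbered Tas and Pph libraries did not deviate together (r = 0.054, 0.066 and -0.04 over 11297 genes). With a replicate block, 9582 genes were called, 4732 higher and 4850 lower, with 642 and 1416 at 2-fold or more. The median of chromosome 8 was 0.25 with no minimum CPM and 0.32 to 0.35 with 1 library left out. That of chromosome 16 was -0.086 under RLE scaling, -0.12 under upper-quartile scaling, -0.19 with no minimum CPM and -0.11 to -0.086 with 1 library left out. That of chromosome 19 was 0.38, 0.35 and 0.33 under the first 3 of these settings. The sign of Eomes, which was not called, turned to 0.086 without Pph replicate 3, 0.018 without Tas replicate 1 and 0.012 without Tas replicate 3, within a range of -0.17 to 0.086 with 1 library left out. Of 328 named genes, 26 changed call or sign under some setting, and the cause was not tested. Among the lists, the antioxidant and glutathione genes called higher came to 2 and the FGF-ERK genes called higher to 3 without chromosomes 8, 16 and 19, a setting that tests fewer genes. Other counts that moved were mesendoderm genes called lower at 3 under DESeq2, protocadherins called higher at 2 without Pph replicate 3, Tas replicate 1 or Tas replicate 3, and Rhox genes called higher at 1 under DESeq2, without the filter, in the 6 libraries alone, and without Pph replicate 3 or Tas replicate 2. Depth limits the genes of few counts, such as Ankrd1, Cdx2, Plac1 and Xlr5b, whose fold changes are the least certain.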

Other observations

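Neat1, the noncoding RNA that builds paraspeckles, belongs to no group described above. It had 307, 307 and 299.6 CPM in Tas, against 119, 129.5 and 123 CPM in Pph, and 132 ± 2.74 CPM in WT (SD, n = 3). It was higher in Tas without overlap of the libraries (log2 fold change 1.3 ± 0.04, edgeR adjusted p = 1.71e-22), and it lies on chromosome 19.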
